A study of Rattus norvegicus with 8 samples.

Results

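Chemokines and their receptors were examined in the ipsilateral substantia nigra (SN) of adult female Sprague Dawley rats, 20 weeks after one injection of an adeno-associated viral vector (AAV6) into that structure. The members were all probes of a rat whole-genome expression array whose RefSeq accession maps to a gene symbol of the chemokine (Ccl, Cxcl, Xcl, Cx3cl) or chemokine receptor (Ccr, Cxcr, Xcr, Cx3cr, Ackr) families. This gave 66 of the 45598 probes on the array, for 53 of the 16678 genes that could be named, of which 33 encode chemokines and 20 encode receptors. A further 4 genes of these families, Ackr1, Ackr4, Ccr8 and Cxcl3, had no probe that could be named here. The AAV-Null group (4 arrays) received vector without the transgene at 5.3e9 vector genomes per µL, and the AAV-αSyn group (4 arrays) received vector carrying wild-type human α-synuclein at 5.2e10. Vector dose and transgene therefore cannot be told apart in this design. The methods call the arrays of a group biological replicates, with the SN dissected from each brain, but give fewer arrays a group than the 4 analysed here. The labels do not tie arrays to rats, so p-values measure the spread between these arrays. The human transgene itself was not analysed here.

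Chemokines are small secreted or membrane-anchored proteins that guide the movement of cells, and most of them signal through receptors coupled to inhibitory G proteins. In the brain, neurons carry the membrane-anchored chemokine Cx3cl1 (fractalkine), and microglia carry its only known receptor, Cx3cr1. Cxcl12 acts through Cxcr4 and is also taken up by the scavenging receptor Ackr3. Other members, such as Cxcl9, Cxcl10 and Cxcl11, are induced by interferon and attract T cells, and Ccl2, Ccl3, Ccl4 and Ccl5 attract monocytes and lymphocytes.

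Intensities are given as log2 values after quantile normalization, and each value belongs to one probe, so levels are compared between arrays and not between genes. All 8 arrays had 74.8 to 77.5% of their spots well above background and no saturated spot. The SN dissection was checked with marker genes. All 6 dopamine neuron markers were measured, and 4 of them had an unadjusted p under 0.05 and a lower mean in AAV-αSyn (limma), beside 2.32% of all probes, although none passed adjustment over all probes. The mean of this list was 12.14 to 12.56 on the AAV-Null arrays and 11.68 to 12.02 on the AAV-αSyn arrays, without overlap. In RNA from whole tissue, fewer cells of a type and less RNA per cell cannot be told apart. The mean of 10 microglia markers was between 11.24 and 11.51 on all 8 arrays.

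The first question was which members were detected in this tissue. A gene was called detected on an array if 0.5 or more of the spots of any of its probes had signal well above background. By this call 26 of the 53 genes were detected on all 8 arrays, 9 on some arrays and 18 on none. Chemokines were detected more widely than receptors: 18 of 33 chemokine genes but 8 of 20 receptor genes were above background on every array, a difference that was not tested. Among probes, 80.5% of chemokine probes and 48% of receptor probes were above background on at least 1 array, beside 74.2% of all probes and 82.5% of probes with a gene symbol. On all 8 arrays it was 61.0% of chemokine probes and 40% of receptor probes, beside 65.0% of all probes and 76.1% of probes with a gene symbol.

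The receptors above background on all 8 arrays included Ackr3, Ccr10, Ccr1l1, Ccr9, Cx3cr1, Cxcr4 and Cxcr5, and Ccr6 was above background on 7. Ccr9 and Cxcr5 each had another probe that was not well above background on any array. The 11 receptors not well above background on any array were Ackr2, Ccr1, Ccr2, Ccr3, Ccr4, Ccr7, Cxcr1, Cxcr2, Cxcr3, Cxcr6 and Xcr1. They include Ccr2, the monocyte receptor for Ccl2, Cxcr2, the neutrophil receptor for Cxcl1 and Cxcl2, and Cxcr3, the T cell receptor for Cxcl9, Cxcl10 and Cxcl11. The 7 chemokines not well above background were Ccl11, Ccl20, Ccl26, Ccl28, Cxcl1, Cxcl2 and Cxcl6. The 8 chemokines above background on some arrays were Ccl1 (7 arrays), Cxcl9 (4), Ccl12 and Ccl4 (3 each), and Ccl21, Ccl25, Ccl7 and Cxcl11 (1 each). The call decides this count, since a more lenient call of positive and significant signal found 50 of the 53 genes on at least 1 array.

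**Figure D1:**
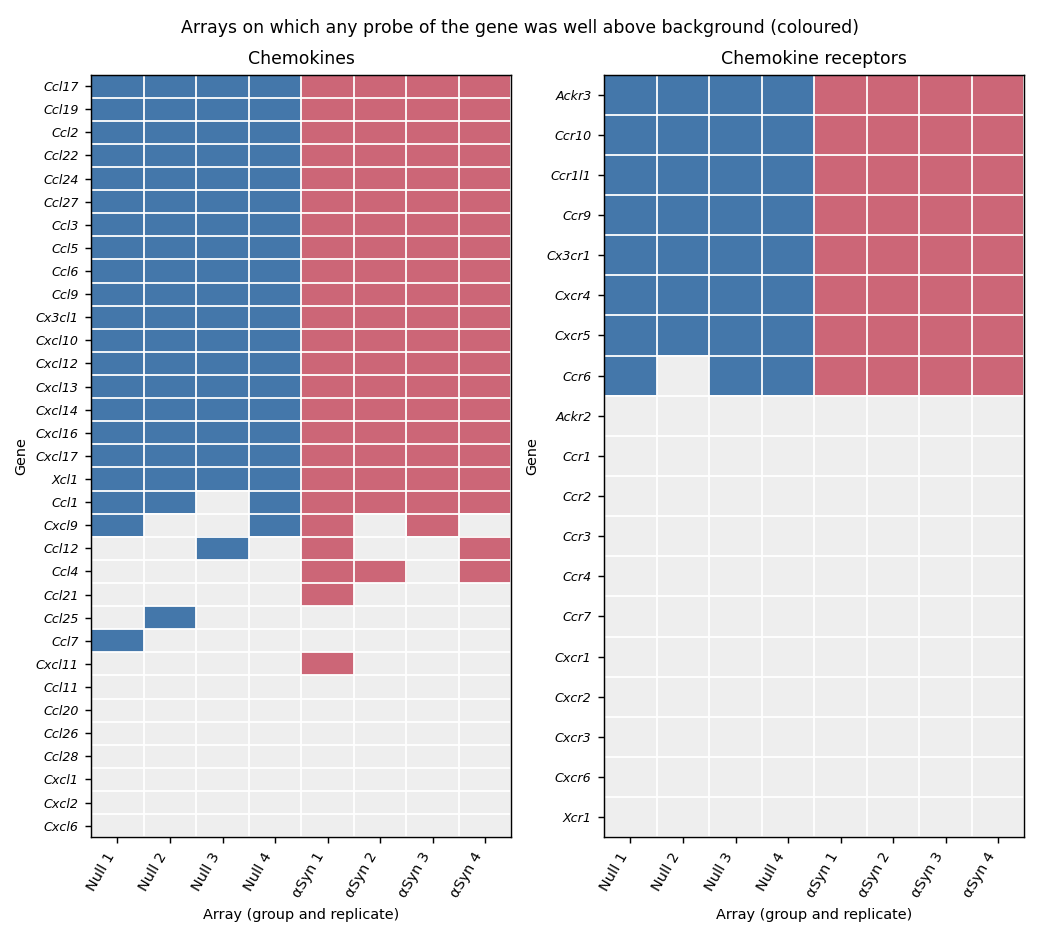
Each row is a member gene reported here and each column an array (4 AAV-Null in blue, 4 AAV-αSyn in red). A coloured cell marks a gene with a probe well above background on that array, and a grey cell one without. Rows without a coloured cell number 18, of which 11 are receptors.

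The second question was whether AAV-αSyn differed from AAV-Null. The 45 member probes above background on at least 1 array, from 35 genes, entered the comparison, and the other 21 were not tested. None of the 45 passed adjustment over all probes (limma, Benjamini-Hochberg), where 0.0148% of all 33853 probes passed, and the smallest adjusted p of a member was 0.760. Before adjustment, 2 of the 45 members (4.44%), Ccl4 and Ackr3, had a p under 0.05 in limma, beside 5.64% of all probes. Both had the higher mean in AAV-αSyn, as did 3.31% of all probes at that threshold. The groups did not overlap at 1 member, Ccl4, beside 3.83% of all probes, or 2.57% with AAV-αSyn higher. Ccl4 entered the comparison only through AAV-αSyn arrays, since it was not well above background on any AAV-Null array, so its separation is a description. Of these shares, that of p under 0.05 in either direction and those without overlap were below the shares of the whole array.

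The median log2 difference, AAV-αSyn minus AAV-Null, was 0.05 over the 45 member probes and 0.01 over all probes tested. It was 0.11 over the 33 chemokine probes and -0.01 over the 12 receptor probes. Over the 35 member probes above background on all 8 arrays it was 0.02, beside 0.01 of all such probes. Over the 10 above background on 1 to 7 arrays it was 0.48, beside -0.003 of all such probes. Of these 10, Ccl4, Ccl21 and Cxcl11 were tested only because of AAV-αSyn arrays, and Ccl25 and Ccl7 only because of an AAV-Null array. The mean was higher in AAV-αSyn at 27 of the 45 member probes (60%), beside 52.4% of all probes. The precision differed between the classes. With 1 probe taken for each gene, the brightest, the 95% confidence interval lay within a 2-fold difference in either direction for 8 of 9 receptor genes and for 12 of 26 chemokine genes, beside 90.9% of all probes. The intervals of the other 14 chemokine genes reached beyond 2-fold.

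**Figure D2:**
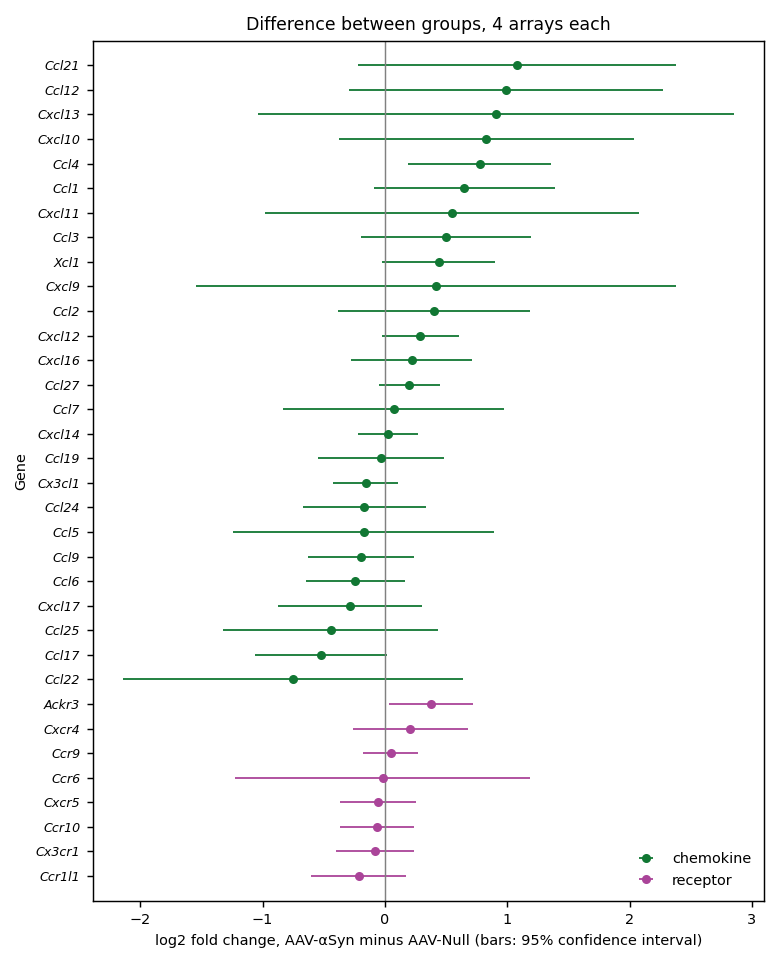
Points give the log2 difference, AAV-αSyn minus AAV-Null, of the brightest probe of each tested gene reported here, and bars its 95% confidence interval (limma, 4 arrays a group). Chemokines are green and receptors purple. The intervals of Ccl4 and Ackr3 lie above 0, and all others drawn include 0.

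Cx3cl1 and its receptor Cx3cr1 were above background on all 8 arrays. The Cx3cl1 probe, printed in 10 spots, read 14.57, 14.94, 14.89 and 15.02 on AAV-Null arrays 1 to 4 and 14.54, 14.81, 14.69 and 14.77 on AAV-αSyn arrays 1 to 4. The replicate 1 array was the lowest of each group, and the groups overlapped. The log2 difference was -0.16 ± 0.12 (SE; limma adjusted p = 0.971), and -0.25 without AAV-Null replicate 1 (adjusted p = 0.760, limma). It was -0.10 without AAV-Null replicate 4 or without AAV-αSyn replicate 1. Cx3cr1 read 12.37, 12.67, 12.64 and 12.26 in AAV-Null and 12.14, 12.34, 12.56 and 12.58 in AAV-αSyn. Its groups overlapped over nearly their whole range, with a difference of -0.08 ± 0.14 (adjusted p = 0.979, limma) and a 95% confidence interval from -0.40 to 0.24.

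The brightest Cxcl12 probe read 11.95, 11.88, 12.47 and 11.93 in AAV-Null and 12.29, 12.44, 12.30 and 12.35 in AAV-αSyn. All AAV-αSyn arrays lay above 3 of the AAV-Null arrays, and AAV-Null replicate 3 was the highest array of all. The difference was 0.29 ± 0.14 (adjusted p = 0.916, limma), and without AAV-Null replicate 3 it was 0.43 with an adjusted p of 0.347. The gene's other probes differed by -0.14 ± 0.36 and 0.15 ± 0.15. The first of these read 9.28 on AAV-αSyn replicate 1 and 10.52 to 10.79 on the other AAV-αSyn arrays, and its group medians were 10.59 in AAV-Null and 10.61 in AAV-αSyn.

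Ackr3, which removes Cxcl12 from the tissue without G protein signalling, read 8.05, 7.78, 7.35 and 7.67 in AAV-Null and 8.22, 7.96, 7.97 and 8.19 in AAV-αSyn. The AAV-αSyn arrays were all above 3 AAV-Null arrays, and AAV-Null replicate 1 lay within their range. The group means were 7.71 ± 0.29 and 8.09 ± 0.14 (SD, n = 4 each). The log2 difference of 0.38 ± 0.15 had an unadjusted p of 0.0357 and an adjusted p of 0.847 in limma. The exact two-sided permutation test over the 70 divisions of the arrays gave p = 0.0857. Leaving out 1 array at a time gave differences of 0.26 to 0.49, and the unadjusted limma p was above 0.05 without AAV-Null replicates 2, 3 or 4 or AAV-αSyn replicates 1 or 4. With the side of the slide as a block the unadjusted limma p was 0.0502. Cxcr4, the signalling receptor for Cxcl12, read 6.13, 6.14, 6.33 and 5.53 in AAV-Null and 6.44, 6.25, 5.82 and 6.45 in AAV-αSyn. The groups overlapped, with a difference of 0.21 ± 0.20 (adjusted p = 0.973, limma). It was 0.35 without AAV-αSyn replicate 3, 0.041 without AAV-Null replicate 4 and 0.31 without AAV-Null replicate 3.

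Ccl4 (MIP-1β), which attracts monocytes and lymphocytes, was the member with the smallest unadjusted p. It read 2.81, 3.39, 2.90 and 3.59 in AAV-Null and 4.55, 3.97, 3.61 and 3.66 in AAV-αSyn. The lowest AAV-αSyn array lay just above the highest AAV-Null array, so the groups did not overlap. The difference was 0.77 ± 0.25, with an unadjusted p of 0.0156 and an adjusted p of 0.760 in limma. The probe was well above background on 3 AAV-αSyn arrays and on no AAV-Null array, so it was tested only because of the group in which it is higher. With the dim AAV-Null signal bounded by the background, the AAV-αSyn mean was 1.63-fold higher. This figure does not allow for the spread between arrays. The 95% confidence interval of the log2 difference (limma) ran from 0.19 to 1.36. With normexp background correction and an offset of 50 the difference was 0.13, with an adjusted p of 0.961 in limma and an unadjusted p above 0.05. Without AAV-αSyn replicate 1 the difference was 0.57 (adjusted p = 0.963, limma). Without both replicate 1 arrays, an alternative chosen after seeing the data, it was 0.45, with an unadjusted p above 0.05 (adjusted p = 0.960, limma).

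Ccl3 (MIP-1α), the gene next to Ccl4 in the rat genome, differed by 0.50 ± 0.30 (adjusted p = 0.958, limma) and by 0.29 without AAV-αSyn replicate 1 or without AAV-Null replicate 3, and Ccl5 (RANTES), a T cell attractant, by -0.17 ± 0.46 (adjusted p = 0.987). The sign of the Ccl5 difference turned without AAV-Null replicate 1 (0.055), AAV-Null replicate 2 (0.10) or AAV-αSyn replicate 4 (0.086), and with array weights it was -0.80. Ccl5 read 9.25, 9.39, 7.80 and 7.80 in AAV-Null and 8.83, 8.91, 8.20 and 7.61 in AAV-αSyn, so that replicates 1 and 2 were above replicates 3 and 4 in both groups. The monocyte attractant Ccl2 read 4.96, 4.70, 4.16 and 5.05 in AAV-Null and 5.93, 4.51, 4.62 and 5.42 in AAV-αSyn. Its groups overlapped, with a difference of 0.40 ± 0.34 (adjusted p = 0.972, limma). It was 0.13 without AAV-αSyn replicate 1, 0.22 without AAV-Null replicate 3, 0.60 without AAV-αSyn replicate 2 and 0.13 with normexp.

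**Figure D3:**
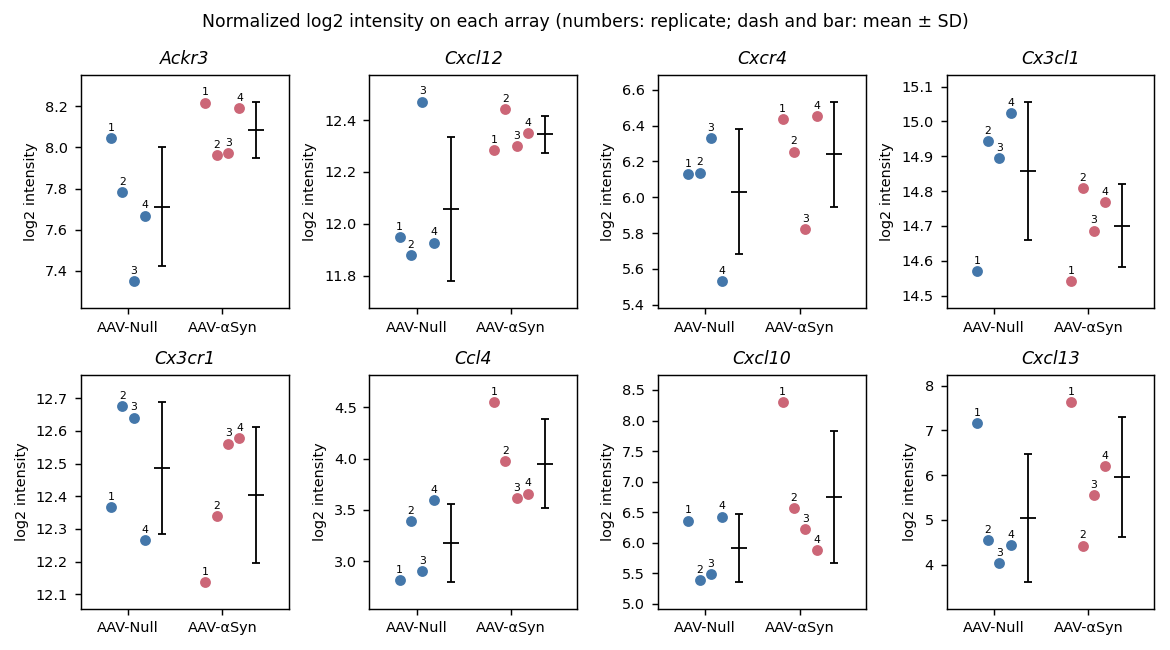
Each panel gives the normalized log2 intensity of the brightest probe of a gene on each array, numbered by replicate, with the group mean and SD (n = 4) as a dash and bar. The vertical scales differ between panels and do not start at 0. The groups are apart in the Ccl4 panel alone, and AAV-αSyn replicate 1 is the highest array for Ackr3, Ccl4, Cxcl10 and Cxcl13.

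Among the other chemokines above background on all 8 arrays, the brightest probe of Cxcl14, whose receptor is not settled, read 13.82, 13.91, 13.62 and 13.90 in AAV-Null and 13.66, 13.90, 13.76 and 14.02 in AAV-αSyn. The groups overlapped, and the differences at its 2 probes were 0.02 and 0.01. The brightest probe of Ccl27, a ligand of Ccr10 in skin, read 13.03, 12.89, 13.09 and 13.33 in AAV-Null and 13.14, 13.33, 13.36 and 13.30 in AAV-αSyn. The groups overlapped, the 3 probes of the gene differed by 0.20, 0.17 and -0.17, and the gene overlaps Il11ra1 in the rat annotation. Cxcl16, which exists as a membrane-anchored form and binds Cxcr6, read 9.45, 9.65, 8.94 and 9.20 in AAV-Null and 10.05, 9.20, 9.35 and 9.52 in AAV-αSyn. AAV-αSyn replicate 1 was its highest array and the other 3 lay within the AAV-Null range, with a difference of 0.22 ± 0.22 (adjusted p = 0.973, limma) that was 0.045 without that array and 0.096 without AAV-Null replicate 3. It was 0.33 without AAV-Null replicate 2 or without AAV-αSyn replicate 2. The brightest Ccl22 probe read 11.18, 10.92, 12.14 and 9.32 in AAV-Null and 9.37, 9.65, 10.99 and 10.55 in AAV-αSyn. These values spread widely within both groups, and the difference of -0.75 ± 0.60 (adjusted p = 0.972, limma) was not shared by the other probes of the gene, at 0.05 and 0.11. It was -0.33 without AAV-Null replicate 3, -0.49 without AAV-αSyn replicate 1 and -1.27 without AAV-Null replicate 4 (adjusted p = 0.580, limma). Ccr9, the receptor for Ccl25, read 9.77, 9.79, 9.56 and 9.83 in AAV-Null and 9.70, 9.65, 9.85 and 9.94 in AAV-αSyn. The groups overlapped, with a difference of 0.05 ± 0.10 (adjusted p = 0.987, limma). The other Ccr9 probe was not well above background on any array.

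One array stood apart for the chemokines, a pattern noticed after the values were seen. AAV-αSyn replicate 1 was the highest of the 8 arrays at 17 of the 45 member probes (37.8%), beside 12.2% of all probes. These were 14 of the 33 chemokine probes and 3 of the 12 receptor probes. Probes near background carried much of the count: they were 8 of the 10 members above background on 1 to 7 arrays, beside 14.96% of all such probes, and 9 of the 35 members above background on all arrays, beside 11.8%. Ccl21 and Cxcl11 were above background on this array alone and so were tested because of it. On this array 33 member genes were above background, and on the others 28 to 30, while its share of all spots above background, 76.1%, was within the range of the other arrays. The median deviation of a chemokine probe from its own mean over the 8 arrays was 0.53 there, and that of a receptor probe was -0.02. AAV-Null replicate 3 was the lowest array at 12 of the 45 member probes, beside 28.1% of all probes, and each of the others was lowest at 4 to 7 members. The median difference of the member probes was -0.001 without AAV-Null replicate 3.

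**Figure D4:**
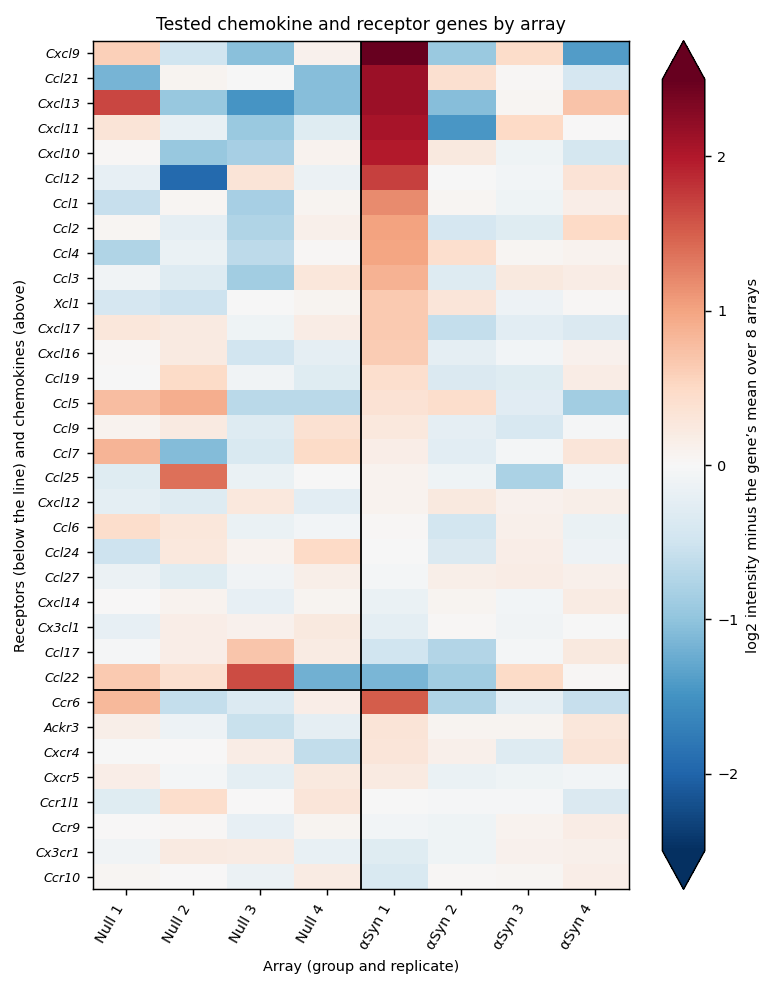
Colour gives the log2 intensity of the brightest probe of each tested gene reported here on each array minus that gene's mean over the 8 arrays, with chemokines above the horizontal line and receptors below, ordered by AAV-αSyn replicate 1. The red cells of that column run from Cxcl9, Ccl21 and Cxcl13 down through 15 genes for which it was the highest array, 2 of them receptors.

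The interferon-induced chemokines Cxcl9, Cxcl10 and Cxcl11 were among the genes highest on AAV-αSyn replicate 1 (Cxcl9 and Cxcl11 were named after their values were seen). Cxcl10 read 6.36, 5.39, 5.49 and 6.43 in AAV-Null and 8.31, 6.57, 6.22 and 5.89 in AAV-αSyn. Cxcl9 read 4.43, 3.34, 2.78 and 3.92 in AAV-Null and 6.54, 2.89, 4.28 and 2.43 in AAV-αSyn. Cxcl11 read 3.4, 2.88, 2.15 and 2.76 in AAV-Null and 5.13, 1.61, 3.56 and 3.08 in AAV-αSyn. All were highest on AAV-αSyn replicate 1, while the lowest arrays of Cxcl9 and Cxcl11 were also in the AAV-αSyn group. Cxcl11 was not well above background on any AAV-Null array. The difference of Cxcl10 was 0.83 ± 0.52 (adjusted p = 0.961, limma) and 0.31 without that array. The difference of Cxcl9 was 0.42 ± 0.85 (adjusted p = 0.987, limma) and -0.43 without it.

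Cxcl9, Cxcl10 and Cxcl11 are neighbours in the rat genome. The 250 bases before the start of each gene (RefSeq, GRCr8, plus strand) are shown because the genes were high on the same array. They lie at chr14:16006916-16007165 for Cxcl9, chr14:15988816-15989065 for Cxcl10 and chr14:15973478-15973727 for Cxcl11. Capitals mark matches, on either strand, to the core of an interferon-stimulated response element (GAAA, 2 bases of any kind, GAAA), an NF-κB site (GGGA, 3 bases of any kind, TCC), a STAT site (TTC, 3 bases of any kind, GAA) and TATAAA, and overlapping matches form one run.
Cxcl9: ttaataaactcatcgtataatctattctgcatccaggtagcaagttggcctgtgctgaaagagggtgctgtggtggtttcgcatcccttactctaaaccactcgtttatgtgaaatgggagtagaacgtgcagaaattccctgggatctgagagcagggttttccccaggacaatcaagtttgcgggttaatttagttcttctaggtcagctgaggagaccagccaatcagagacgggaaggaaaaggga
Cxcl10: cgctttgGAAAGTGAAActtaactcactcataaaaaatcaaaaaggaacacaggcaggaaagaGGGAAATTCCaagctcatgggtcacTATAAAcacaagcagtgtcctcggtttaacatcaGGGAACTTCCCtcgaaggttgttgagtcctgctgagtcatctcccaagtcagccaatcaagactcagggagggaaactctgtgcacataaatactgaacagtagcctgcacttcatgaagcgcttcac
Cxcl11: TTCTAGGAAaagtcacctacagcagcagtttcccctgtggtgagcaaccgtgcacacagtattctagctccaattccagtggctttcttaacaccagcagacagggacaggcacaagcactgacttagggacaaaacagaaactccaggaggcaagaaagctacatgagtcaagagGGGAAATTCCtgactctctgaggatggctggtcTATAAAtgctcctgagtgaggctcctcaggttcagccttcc
The Cxcl10 stretch holds 1 match to the interferon element, 3 to the NF-κB site and 1 to TATAAA. The NF-κB matches nearer the gene overlap, 1 on each strand, and form 1 run. The Cxcl11 stretch holds 1 match each to the NF-κB site, the STAT site and TATAAA, and the Cxcl9 stretch has none of these letters. Of the 53 member genes 42 had a promoter in the table, and the NF-κB letters were in 8 of them (19%), beside 3.38% of all promoters. The interferon element was in 2 (4.76%, beside 3.41%), the STAT site in 4 (9.52%, beside 7.67%) and TATAAA in 12 (28.6%, beside 12.9%). A match of letters is a description and not a bound site.

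Other chemokines highest on AAV-αSyn replicate 1 and named for that reason were Cxcl13, the B cell attractant, Ccl1, Ccl12, Ccl21, Ccl3 and Xcl1. Cxcl13 read 7.16, 4.55, 4.04 and 4.44 in AAV-Null and 7.64, 4.43, 5.55 and 6.21 in AAV-αSyn. Both replicate 1 arrays were above all others, and the group difference of 0.91 ± 0.84 had an adjusted p of 0.972 in limma. It was 0.35 without AAV-αSyn replicate 1, 1.42 without AAV-αSyn replicate 2, 1.62 without AAV-Null replicate 1 and 0.57 without AAV-Null replicate 3. The replicate 1 arrays shared the top of the range at 5 member probes (11.1%), from Ccr6, Cxcl13, Cxcl17 and Cxcl9, beside 4.34% of all probes. Same-numbered arrays of the groups also lay in the same row of the slide, so replicate number and row cannot be told apart. Ccl12, well above background on 3 arrays, differed by 0.99 ± 0.56 (adjusted p = 0.947, limma) and by 0.58 without AAV-αSyn replicate 1, 0.51 without AAV-Null replicate 2, 0.16 with normexp and 1.59 with array weights. Ccl21 read 1.24, 2.48, 2.41 and 1.35 in AAV-Null and 4.55, 2.82, 2.44 and 1.98 in AAV-αSyn. It was not well above background on any AAV-Null array, and no fold is given because the bound does not reach 1. Ccl17, which shares Ccr4 with Ccl22, had a lower mean in AAV-αSyn, by -0.52 ± 0.24 (adjusted p = 0.892, limma).

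**Figure D5:**
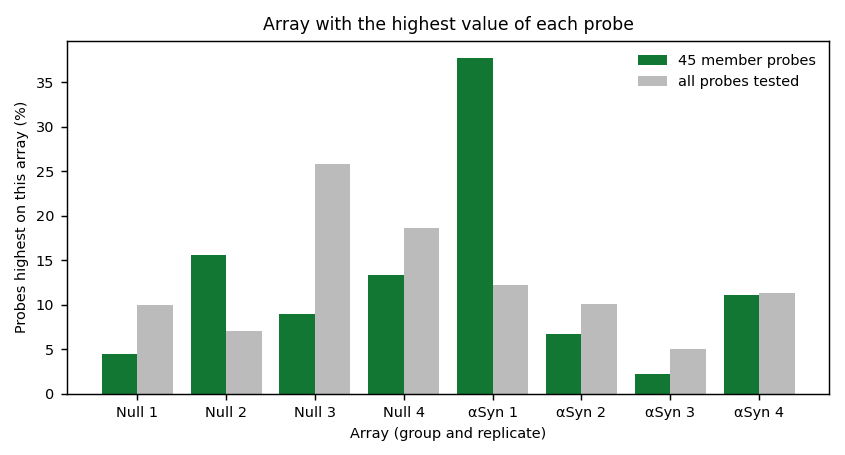
Bars give the percentage of probes whose highest value fell on each array, for the 45 member probes (green) and all 33853 probes tested (grey). AAV-αSyn replicate 1 holds 37.8% of the members and 12.2% of all probes, while AAV-Null replicate 3 holds 8.89% and 25.8%.

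Some lymphocyte markers were also high on that array. The mean of the 3 measured T cell markers (of 6, with Cd3e, Cd2 and Cd8a not above background) was 6.96 on it and 5.59 to 6.61 on the other 7. The T cell receptor subunit Cd3g read 6.59 there and 3.86 to 5.34 on the others, whereas Cd4 read 6.18 there, below 4 other arrays. The mean of the 2 measured B cell markers was 5.13 there and 2.54 to 4.04 on the others. Irf1, a transcription factor induced by interferon, read 10.57 there and 9.82 to 10.18 on the others. The microglia mean there, 11.51, was narrowly above all AAV-Null arrays and just below AAV-αSyn replicate 2. The part of these genes in the chemokine values was not tested.

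Genes that act with the chemokines were also compared. In the list of signal transduction, 20 genes were tested and none passed adjustment. An unadjusted p under 0.05 was reached by 1 of the 20, beside 5.64% of all probes. It was the myeloid kinase Fgr, with a difference of 0.30 ± 0.11 (adjusted p = 0.826, limma), and the median of the list was 0.05. The β-arrestins, which uncouple receptors from G proteins, had differences of opposite sign: -0.17 ± 0.08 for Arrb1, whose groups did not overlap, as at 3.83% of all probes (adjusted p = 0.902, limma), and 0.14 ± 0.07 for Arrb2 (adjusted p = 0.930, limma). In the list of inducers and processing enzymes none of 12 genes tested passed adjustment or had an unadjusted p under 0.05. Il6, Ifng and Mmp9 were not well above background, and Adam10 and Adam17, which shed Cx3cl1 and Cxcl16 from the membrane, differed by 0.03 and 0.19. None of 5 related genes outside the rule passed adjustment.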

How the data were processed

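RNA from 8 SN samples (4 AAV-Null, 4 AAV-αSyn) was hybridised in 1 colour (Cy3) to the 8 arrays of 1 slide. The authors deposited scanner files with spot intensity, background-corrected by Agilent Feature Extraction (11.5.1.1 in the processing notes, 12.0.3.2 in the file headers) together with other per-spot calls, and a matrix of log2 values that they had quantile normalized. The methods speak of fewer arrays a group than the 4 analysed here.

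Processed intensity was taken to log2 without control and outlier spots. Probes well above background on at least 1 array were quantile normalized and spots averaged. Groups were compared in R 4.3.3 with limma 3.58.1 (lmFit, eBayes, two-sided, threshold 0.05 after Benjamini-Hochberg adjustment over 33853 probes). Single probes had exact permutation tests. Symbols came from RefSeq accessions (GRCr8), which named 21229 probes. A gene is represented by its brightest probe. Fold bounds set the mean of the bright group against the higher of the dim probe's own signal and the lowest signal well above background on each dim array.

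Named genes were the 8 brightest, members with an unadjusted p under 0.05 or without overlap, members above background on all arrays of one group and none of the other, and tested members of 6 ligand and receptor pairs; others were named after their values were seen. One member is included in the counts but is not reported here by name. Members and lists were chosen with earlier results of these data known. The fit was tested on simulated data and recovered 74% of 200 probes changed by 1 on the log2 scale (33836 probes). These probes were drawn from the whole array. Confidence intervals of member genes were wider, with a median half-width of 0.52 beside 0.30 for all probes, so this share does not apply to the members. The number of arrays limits the precision. Alternatives changed scaling, background correction, filter, weights, blocks and arrays.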

Additional observations from a re-analysis of the deposited data

Results flagged for a closer look

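Within a group of 4 arrays, 1 array lay far from the other 3 at 5 of the 90 probe and group combinations examined, where chance gives 4.5. The gap to the nearest array is given as a share of the group's range. Cxcl13 was high on AAV-Null replicate 1, at 7.16 against 4.04 to 4.55 (gap 0.835). The brightest Cxcl12 probe was high on AAV-Null replicate 3, at 12.47 against 11.88 to 11.95 (gap 0.883). Ccl25 was high on AAV-Null replicate 2, at 4.03 against 2.34 to 2.63 (gap 0.82931), the only array on which it was well above background. A Ccl27 probe was low on AAV-αSyn replicate 1, at 12.18 against 12.41 to 12.43 (gap 0.897). Ccr1l1 was low on AAV-αSyn replicate 4, at 3.88 against 4.20 to 4.22 (gap 0.937).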

How the results depend on the processing

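No member passed adjustment under any of the 21 alternatives run. Over all probes, 5 passed, and 10 did with array weights, 3 with the side of the slide as a block, 1 without both replicate 1 arrays and 3 to 5 when each array was left out in turn. The replicate number is also the row of the slide. With this number as a block 0 probes passed (limma; 6.55% had an unadjusted p under 0.05), and 4 members, Ackr3, Ccl17, Ccl4 and Cxcl13, had an unadjusted p under 0.05. Same-numbered arrays deviated together with correlations of 0.14, 0.27, 0.04 and -0.002 over all probes and 0.45, 0.32, 0.25 and -0.19 over the 45 member probes; not every pair was above 0.1, so the numbers were not taken to pair the samples. Members with an unadjusted p under 0.05 (limma) numbered 11 with array weights (24.4%, beside 13.3% of all probes), 7 higher and 4 lower in AAV-αSyn. They numbered 1 to 7 when 1 array was left out. There were 7 without AAV-Null replicate 1 (15.9%, beside 6.22% of all probes), 3 higher and 4 lower in AAV-αSyn. There was 1 without AAV-Null replicate 2 (2.27%, beside 4.51%).

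Among the genes rerun under the alternatives (those named by the rule and reported here, and Cxcl9, Cxcl11, Cxcl13, Ccl3, Ccl1, Ccl12, Ccl21, Xcl1 and Ccl17), signs turned for Cxcl14, Cxcl16, Ccl5, Ccr9, Cx3cr1 and Cxcl9. With array weights Cxcl14 was -0.022 and Cxcl16 -0.079, and without both replicate 1 arrays Cxcl9 was -0.18. Leaving out 1 array gave -0.43 to 0.10 for Ccl5, -0.039 to 0.082 for Cxcl14, -0.013 to 0.093 for Ccr9, -0.16 to 0.0064 for Cx3cr1 and -0.43 to 0.96 for Cxcl9. Normexp with an offset of 50, which by construction shrinks differences of dim probes, gave 0.13 for Ccl4, 0.10 for Cxcr4, -0.18 for Ccl17, 0.36 for Cxcl13 and 0.51 for Cxcl10. The median over members was -0.01 with array weights and -0.001 to 0.10 with 1 array left out. Genes above background numbered 34 when every spot had to pass. Probes dim on most arrays, such as Ccl4, are limited by their signal over background. The causes were not tested.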
